A study of Mus musculus with 8 samples.

Results

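Cytochrome P450 genes were followed in whole-tissue RNA of the mouse vomeronasal epithelium, a sensory lining of the nose that detects pheromones. The members were all protein-coding genes of the GENCODE M21 annotation whose symbol starts with Cyp followed by a family number, a subfamily letter and a gene number, and all 98 of these were among the 48831 genes of the count tables. All mice were C57BL/6J aged 8 weeks, and 2 libraries stood in each of 4 groups. Male pools 1 and 2 and female pools 1 and 2 each held tissue of 2 mice and were labelled as non-flushed, and flushed males 1 and 3 and flushed females 2 and 3 each came from 1 mouse with flushed tissue. The protocol text shared by all samples describes flushing of blood for every mouse, and the descriptions of the single samples were used here. Pooling went together with preparation, as did the folder date and the lane in the file headers, so these cannot be told apart, and any preparation difference below is a difference between these 2 sets of libraries. The tissue was bulk, so fewer cells of a type and less RNA per cell cannot be told apart.

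Cytochrome P450 enzymes are haem monooxygenases that insert an oxygen atom from molecular oxygen into a substrate. Those of the endoplasmic reticulum take electrons from P450 oxidoreductase (Por) and cytochrome b5, and those of mitochondria from ferredoxin (Fdx1) and its reductase (Fdxr). The nasal lining is known for high levels of drug-metabolising P450s, which act on inhaled chemicals and odorants, while other families make or clear steroids, sterols, vitamin D, retinoic acid and fatty acid mediators.

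Promoters are shown for 5 members on which the results turn: the pair of most abundant genes (Cyp2a5 and Cyp2f2), the close relative of the first (Cyp2a4), a gene that varied between libraries (Cyp1a2) and the gene with the smallest p by preparation (Cyp2r1). The sequences are those of RefSeq on GRCm38.p6, from 250 bases before to 50 bases after the annotated start, written 5′ to 3′ along the gene. They lie at chr7:26835089-26835388 (plus strand), chr7:26306942-26307241 (plus), chr7:27119705-27120004 (plus), chr9:57683606-57683905 (minus) and chr7:114562923-114563222 (minus), in this order. Capitals mark TATAAA, the letters of a TATA box, and GCGTG, the core bound by the aryl hydrocarbon receptor, searched on both strands.
Cyp2a5: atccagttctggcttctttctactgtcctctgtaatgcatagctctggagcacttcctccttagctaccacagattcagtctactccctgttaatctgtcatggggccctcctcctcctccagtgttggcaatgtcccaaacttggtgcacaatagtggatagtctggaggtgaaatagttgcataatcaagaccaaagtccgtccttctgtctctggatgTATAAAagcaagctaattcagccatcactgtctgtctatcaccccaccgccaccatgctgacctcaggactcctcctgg
Cyp2a4: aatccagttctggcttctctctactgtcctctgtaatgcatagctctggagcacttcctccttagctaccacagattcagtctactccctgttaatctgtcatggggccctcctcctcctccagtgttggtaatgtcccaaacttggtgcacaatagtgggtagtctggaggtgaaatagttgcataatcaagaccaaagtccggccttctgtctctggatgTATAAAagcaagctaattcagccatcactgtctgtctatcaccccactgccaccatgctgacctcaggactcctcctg
Cyp2f2: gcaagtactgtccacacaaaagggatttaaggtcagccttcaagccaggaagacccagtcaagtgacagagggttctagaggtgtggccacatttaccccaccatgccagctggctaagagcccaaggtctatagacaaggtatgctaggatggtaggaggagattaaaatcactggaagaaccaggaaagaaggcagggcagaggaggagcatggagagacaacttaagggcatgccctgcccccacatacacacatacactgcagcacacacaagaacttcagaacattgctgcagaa
Cyp1a2: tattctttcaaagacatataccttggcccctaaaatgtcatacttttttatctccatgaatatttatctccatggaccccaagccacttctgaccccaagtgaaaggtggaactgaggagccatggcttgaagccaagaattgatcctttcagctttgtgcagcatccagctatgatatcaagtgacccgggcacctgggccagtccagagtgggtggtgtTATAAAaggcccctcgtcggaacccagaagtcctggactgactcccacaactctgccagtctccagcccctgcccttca
Cyp2r1: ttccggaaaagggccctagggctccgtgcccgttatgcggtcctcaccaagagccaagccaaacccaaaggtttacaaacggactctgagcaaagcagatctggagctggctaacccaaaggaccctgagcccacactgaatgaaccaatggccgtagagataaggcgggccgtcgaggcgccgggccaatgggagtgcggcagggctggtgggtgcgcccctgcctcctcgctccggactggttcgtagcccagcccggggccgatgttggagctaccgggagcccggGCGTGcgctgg
TATAAA began 29 bases before the start in Cyp2a5, 28 before it in Cyp2a4 and 29 before it in Cyp1a2. It was not found in these windows of Cyp2f2 and Cyp2r1, and GCGTG was found once, in Cyp2r1. Between the Cyp2a4 and Cyp2a5 windows 294 aligned bases were identical, and the 5 substitutions from Cyp2a4 to Cyp2a5 were C19T, T131C, G161A, G205T and T270C, counted from 1 at the 5′ end of the Cyp2a4 sequence. Promoters were found for 75 of the 98 members, with 85 windows in all. TATAAA was present in 34 of these 85 windows and in 13.62% of all 32851 promoter windows of the same length, while GCGTG was present in 18.8% of the members' windows and 32.39% of all. Of the 30 members with a promoter that passed the filter on low counts, 8 carried TATAAA and 11 carried GCGTG. A match describes these letters only.

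The 8 libraries held between 18763557 and 24965088 counts, of which the P450 genes took 0.089 to 0.145%. Omp, the marker of mature sensory neurons of the nose, lay at 159 to 226 RPKM (counts scaled to exon length and library size). Trpc2, the channel that defines vomeronasal neurons, was at 0 in every library, and 100% of its exon bases are shared with other annotated genes on its strand, whose reads were not counted. The same held for Ugt2a1 of supporting cells, at 98.8% of its exon bases. Among P450 genes only 7 shared any exon base in this way, and the largest share was 8.2%.

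Expression was dominated by a pair of genes. The highest mean was that of Cyp2a5, the coumarin hydroxylase of the mouse, with 209.8 ± 59.1 RPKM (SD, n = 8), followed by Cyp2f2, which oxidises naphthalene and is a marker of airway club cells, with 133.2 ± 30.5 RPKM. They ranked 134 and 221 among the 20601 genes that passed the filter, and together they made up 64.1 to 76.5% of the summed RPKM of all members. Behind them lay Cyp20a1, an orphan P450 (17.8 ± 1.1 RPKM), Cyp2j6, an epoxygenase of polyunsaturated fatty acids (16.4 ± 1.4), Cyp2a4, a testosterone hydroxylase (14.6 ± 3.9), and Cyp4b1, a fatty acid hydroxylase that also activates lung toxicants (10.9 ± 2.4). These 6 were the members with a mean of 10 RPKM or more. A further 20 lay between 1 and 10 RPKM, 15 between 0.1 and 1, and 57 below 0.1.

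**Figure D1:**
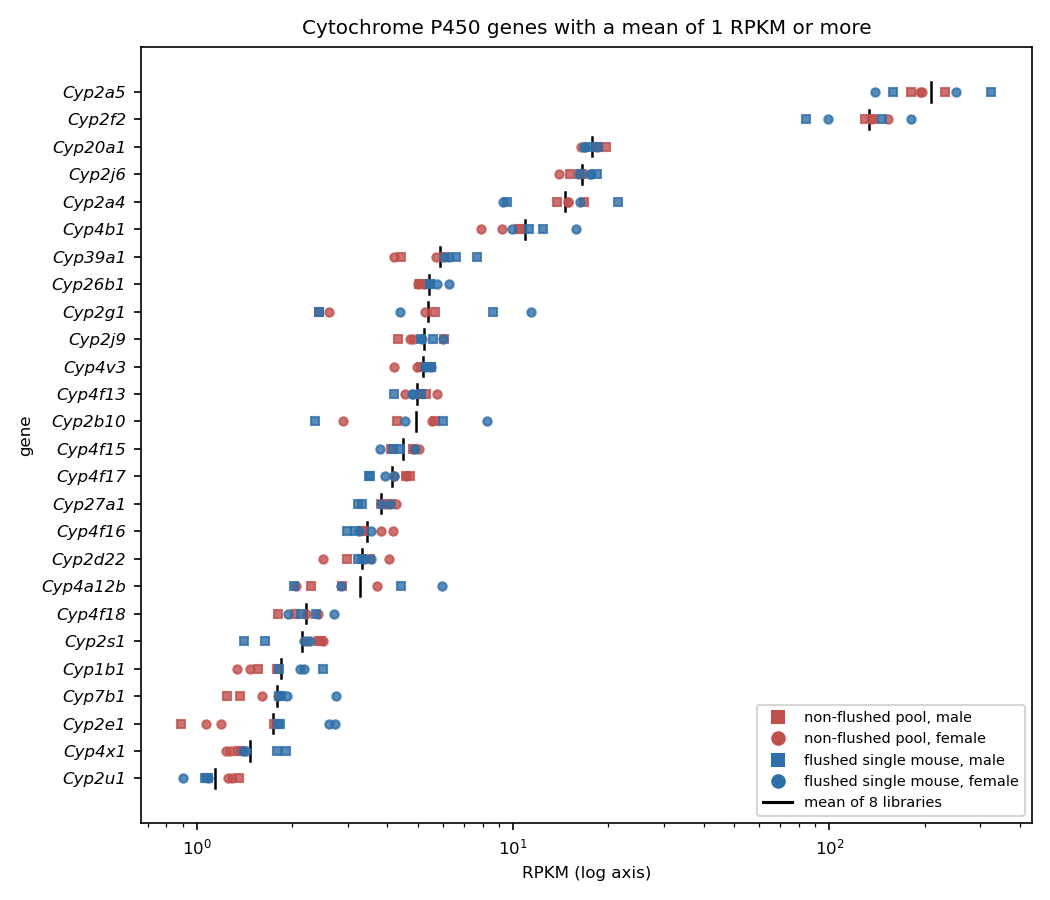
RPKM of the 26 P450 genes with a mean of 1 RPKM or more, 1 point per library on a log axis, with a bar at the mean of the 8 libraries. Cyp2a5 and Cyp2f2 stand well to the right of the rest, and the points of Cyp2g1 and Cyp2b10 spread far more widely than those of Cyp20a1.

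Of the 98 members, 70 had a count in some library and 39 passed the filter. The other 28 were at 0 in all 8 libraries, which allows up to 3 counts per library, or 0.12 to 0.16 CPM (counts scaled to library size). All 15 members of subfamily 2c together summed to a mean of 0.213 RPKM, the 9 of subfamily 3a to 0.509 RPKM, almost all of it Cyp3a13, and Cyp7a1, the rate-limiting enzyme of bile acid synthesis, was at 0. The 6 hepatocyte markers had a summed level of 0.517 to 1.82 CPM and Alb at 0.0231 RPKM or below. Of the steroid hormone enzymes, Cyp19a1 (aromatase), Cyp11b1 and Cyp11b2 had a count of 0, and Cyp17a1 and Cyp21a1 had 4.5 and 2 counts over all 8 libraries.

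By role, the 60 members of families 1 to 3, which mainly act on foreign chemicals, held 83.7% of the summed mean RPKM, with 18 past the filter. The 20 members of family 4, hydroxylases of fatty acids and eicosanoids, held 8.82% with 13 past the filter. Cyp20a1 held 3.7%. The 13 members of the sterol, steroid and vitamin D families held 2.63%, led by Cyp39a1, an oxysterol hydroxylase, at 5.87 ± 1.13 RPKM. The 3 members of family 26, which clear retinoic acid, held 1.2%, led by Cyp26b1 at 5.41 ± 0.42 RPKM. Roles were given by family number, so Cyp2r1, which hydroxylates vitamin D, stands under families 1 to 3. Cyp51 of cholesterol synthesis has no subfamily letter in its symbol and is not among the members, so these shares leave it out.

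On chromosome 7, 13 members lie between positions 25802475 and 27158668 of GRCm38, with no gap between neighbours above 1 Mb, and this cluster held 76.9% of the summed mean RPKM. Its levels were uneven. Cyp2a5 (chr7:26835305-26843548) and Cyp2f2 (chr7:27119909-27133660) flank a stretch with Cyp2a22, at 0 in every library, and Cyp2a12, at 0.0288 RPKM. Cyp2g1 (chr7:26808892-26821205), an olfactory P450 that metabolises steroids, lies just before Cyp2a5 and had a mean of 5.36 ± 3.23 RPKM. Cyp2a4 (chr7:26307169-26315088), Cyp2b10 (chr7:25897620-25926624), which is inducible by phenobarbital in mouse liver, and Cyp2s1 (chr7:25802475-25816913), an epithelial P450, had 14.6, 4.94 and 2.14 RPKM, while Cyp2b9, Cyp2b13 and Cyp2b23 had none. The other clusters were far lower, with 21.8 RPKM for the 8 Cyp2j genes of chromosome 4 and 18.5 RPKM for 8 Cyp4f genes of chromosome 17.

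Close relatives limit some of these values, since a read with several alignments was split in fractions between genes. Of the stretches of 100 bases, the read length, in the longest coding transcript, 14.4% of Cyp2a5 and 11.2% of Cyp2a4 occur unchanged in a transcript of another gene. For the pair Cyp4a12a and Cyp4a12b, hydroxylases of arachidonic acid, this share was 35.8 and 36.2%, and for Cyp3a41a and Cyp3a41b 90.8 and 88.2%. Cyp2a5 stood 13.0 to 16.7 times above Cyp2a4 in the 8 libraries, per length. A count that was not whole occurred in all 8 libraries for Cyp2a4 and in 6 for Cyp2a5. How many reads were split between the pair was not measured, so the error this adds to either level is not known.

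The spread between libraries of the same group was wide for several members, abundant ones among them. As a measure, the SD of log2(CPM + 0.5) within the 4 groups, pooled over them, had a median of 0.23 over the 39 members and of 0.14 over all 20601 genes tested. It was 0.95 for Cyp1a2, which oxidises caffeine and aromatic amines, and 0.94 for Cyp2g1, both at percentile 99.5 of all genes. Cyp2b10 (0.63), Cyp4a12b (0.60), Cyp3a13 (0.51), Cyp2a4 (0.50), Cyp2a5 (0.49), Cyp4a12a (0.49), Cyp1a1, a relative of Cyp1a2 (0.44), and Cyp2f2 (0.43) followed. Cyp1a2 and Cyp1a1 rested on 7 to 59 and 3 to 17 counts per library, where counting error adds to the SD. The medians of members and of all genes were not matched for level. The SD, like the spread used by edgeR, takes pools of 2 mice and single mice together. Over the 4 pools and the 4 flushed libraries the SD of RPKM was 22.2 and 86.25 for Cyp2a5 and 9.99 and 44.6 for Cyp2f2. For Cyp1a2 it was 0.579 and 0.502. At the other end were Cyp4x1 (0.04), Cyp26b1 (0.05), Cyp4f17 (0.05), Cyp27a1, the sterol side-chain hydroxylase of mitochondria (0.06), Cyp4f16 (0.07) and Cyp20a1 (0.08).

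Cyp2g1 was at 5.67 and 2.44 RPKM in male pools 1 and 2, 5.25 and 2.62 in female pools 1 and 2, 4.39 and 11.4 in flushed females 2 and 3, and 8.64 and 2.43 in flushed males 1 and 3. Cyp1a2 in the same order was at 1.43, 0.212, 0.386, 0.243, 0.345, 1.08, 1.24 and 0.250 RPKM. The 4 highest libraries were the same for both, namely male pool 1, female pool 1, flushed female 3 and flushed male 1, and the groups of either sex or preparation overlapped.

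Of the 5 listed markers of main olfactory sensory neurons, 3 had their highest values in the same libraries as this pair and 2 did not. Cnga2, the channel subunit of these neurons, was at 1.19, 0.520, 1.14, 0.396, 0.544, 2.08, 3.16 and 0.291 RPKM in the same order, and its 4 highest libraries were again those 4. Stoml3 and Gnal, a membrane protein of olfactory cilia and the G protein of olfactory transduction, also had their 4 highest values there, from 2.41 to 5.38 and from 0.938 to 2.16 RPKM. Adcy3, the adenylyl cyclase of these neurons, did not follow them: it was at 8.41 to 9.27 RPKM in the pools and 5.96 to 7.87 in the flushed libraries, and was lower by preparation (adjusted p = 0.0046). Cngb1, another channel subunit, did not follow them either, with 3.32 to 4.32 RPKM and its highest value in female pool 2. The summed level of all 5 was 93.5 to 105.6 CPM in the pools and 74.8 to 111.9 in the flushed libraries. These genes were set beside Cyp2g1 and Cyp1a2 after their values were seen, and their part in the spread was not tested.

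Cyp2a5 followed another order. It was at 232.7 and 181.3 RPKM in male pools 1 and 2, 195.5 and 193.2 in female pools 1 and 2, 139.2 and 252.1 in flushed females 2 and 3, and 159.3 and 325.3 in flushed males 1 and 3. Cyp2f2 in the same order was at 137.2, 129.7, 153.0, 135.3, 98.7, 181.2, 84.0 and 146.5 RPKM. Both were lowest in flushed female 2 and flushed male 1, so that the flushed libraries enclosed the range of all 4 pools.

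Cyp2a4, at 16.8, 13.8, 14.9, 14.9, 9.28, 16.3, 9.55 and 21.4 RPKM, had the flushed libraries in the same order as Cyp2a5. Cyp2b10 (2.36 to 8.24 RPKM), Cyp4a12b (2.03 to 5.96), and Cyp3a13, a xenobiotic P450 (0.214 to 1.11), were likewise higher in flushed female 3 and flushed male 3 than in flushed female 2 and flushed male 1. In flushed female 3 Aldh1a1, a retinaldehyde dehydrogenase, was at 151.8 RPKM against 48.2 to 92.7 in the other 7 libraries. The 6 markers of ciliated respiratory cells summed to 645.8 CPM in flushed female 3 and to 317.5 in flushed male 1, the highest and lowest of the 8. Flushed male 3 was at 390.5 and flushed female 2 at 393.6, both within the range of the pools (381.1 to 555.8). The part of these cells in the levels of P450 genes was not tested.

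**Figure D2:**
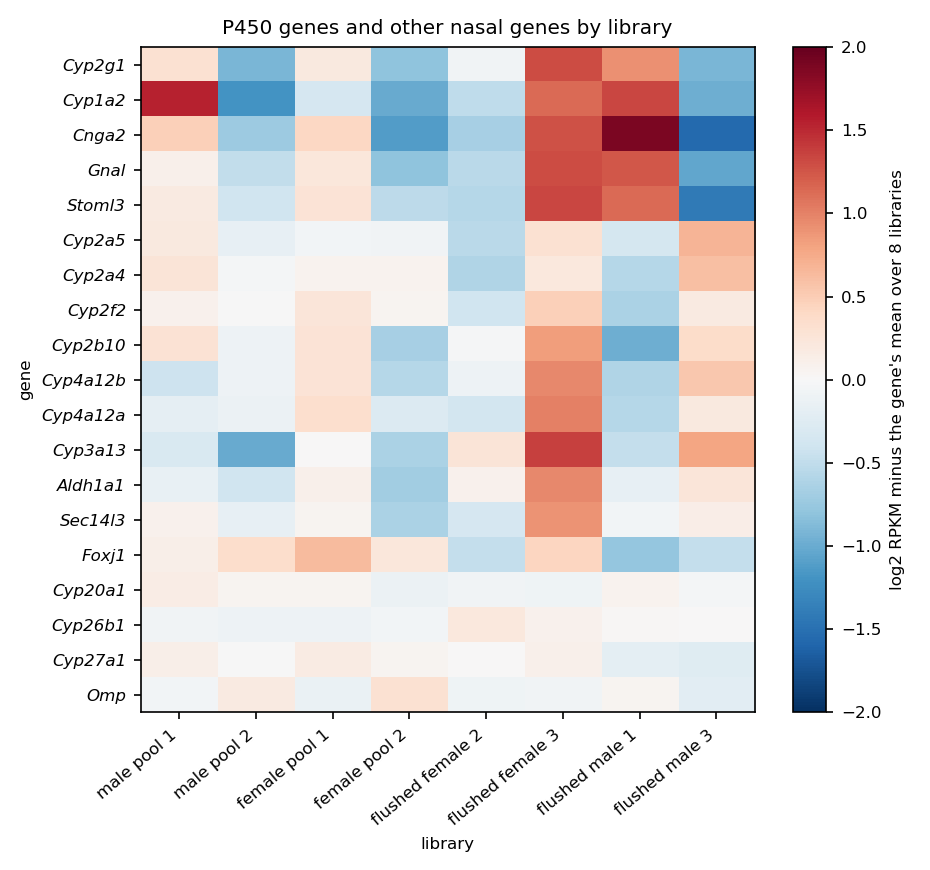
Log2 RPKM of 19 genes in each library minus the mean of that gene over the 8 libraries, as a colour from blue (lower) to red (higher), for genes chosen after their values were seen. Cyp2g1 and Cyp1a2 have their 4 highest values in the same libraries as Cnga2, whereas Cyp2a5, Cyp2a4 and Cyp2f2 are blue in flushed female 2 and flushed male 1, and Cyp20a1, Cyp26b1 and Cyp27a1 stay pale. Adcy3 and Cngb1, the listed markers of main olfactory sensory neurons that did not follow Cyp2g1 and Cyp1a2, are not drawn.

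By sex, 0 of the 39 tested members passed an adjusted p of 0.05 in edgeR's quasi-likelihood test with preparation in the model, where 24 of all 20601 genes (0.116%) did. With so few calls in all genes, a count of 0 is near the background. The smallest unadjusted p was that of Cyp4x1, a fatty acid P450 of the brain, which was at 1.38, 1.35, 1.91 and 1.79 RPKM in the males and 1.23, 1.28, 1.43 and 1.40 in the females. The log2 difference, male minus female, was 0.27 ± 0.10 (SE), with an adjusted p of 0.556, and the males lay above the females within each preparation. Cyp7b1, an oxysterol hydroxylase (-0.37 ± 0.14, adjusted p = 0.56), and Cyp4f16, a family 4 fatty acid hydroxylase (-0.20 ± 0.08, adjusted p = 0.583), were the others of the 3 members with an unadjusted p under 0.05. DESeq2 and limma-voom also called 0 members.

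The precision of this comparison differed between abundant members, with an SE on the log2 scale of 0.058 for Cyp20a1 and 0.066 for Cyp2j6. The SE was wider for Cyp2a5 and Cyp2f2, the pair with the highest means. Cyp2a5 had 224.7 ± 73.8 RPKM in males and 195.0 ± 46.1 in females (SD, n = 4), a log2 difference of 0.20 ± 0.22 with an adjusted p of 0.884. Cyp2f2 had 124.4 ± 27.8 and 142.0 ± 34.5 RPKM (log2 -0.20 ± 0.20, adjusted p = 0.865). Cyp4a12b and Cyp4a12a had log2 differences of -0.32 and -0.45 (adjusted p = 0.851 and 0.776). Over the 39 members the median log2 difference was -0.08, with 15 above 0, and over all genes it was -0.003.

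By preparation, 11 of the 39 tested members passed (28.2%), 9 higher and 2 lower in the flushed libraries. This share was below that of all tested genes (45.5%). The share of members higher in flushed tissue, 23.1%, was near the background of 22.6%, and the share lower, 5.13%, was below the background of 22.9%. The median log2 difference, flushed minus pool, was 0.12 over the members and -0.02 over all genes. All flushed libraries lay below all pools in 1 member, Cyp4f17, which was not called (-0.25, adjusted p = 0.0639), and in 20.4% of all genes. The pair of most abundant members was not among the 11 either: Cyp2a5 differed by 0.12 ± 0.22 (adjusted p = 0.692) and Cyp2f2 by -0.13 ± 0.20 (adjusted p = 0.622).

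**Figure D3:**
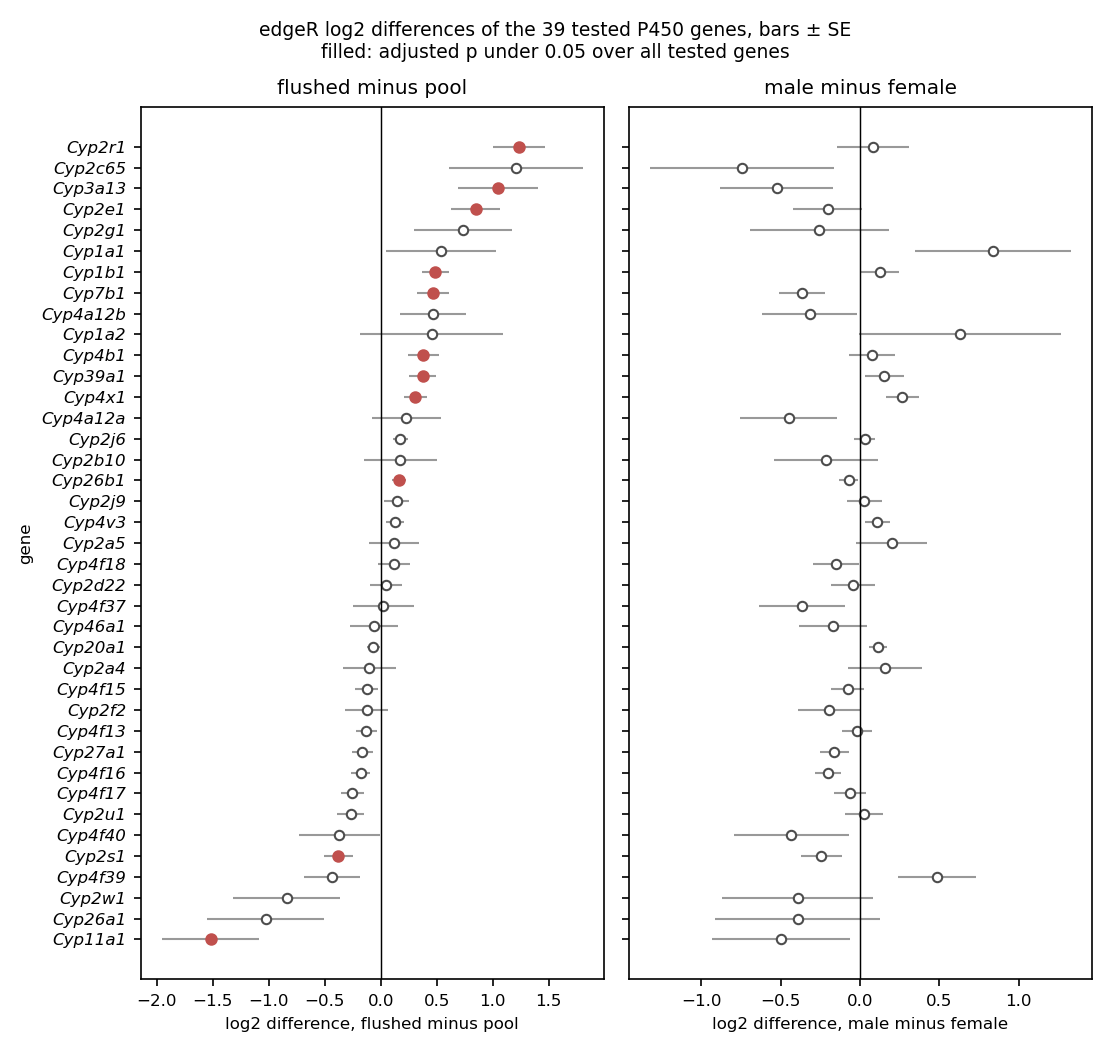
Log2 differences of the 39 tested P450 genes by preparation (left, flushed minus pool) and by sex (right, male minus female), with bars of 1 SE from edgeR. Filled points passed an adjusted p of 0.05 over all genes, 11 on the left and 0 on the right, and the bars of Cyp2g1 and Cyp1a2 are wide in both panels.

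Cyp2r1, Cyp1b1 and Cyp2e1 rose in the flushed libraries and kept the call when any 1 library was left out. Cyp2r1, which hydroxylates vitamin D at the side chain, was at 0.307, 0.380, 0.398 and 0.218 RPKM in male pools 1 and 2 and female pools 1 and 2, and at 0.835, 0.685, 0.825 and 0.744 in flushed females 2 and 3 and flushed males 1 and 3. The groups did not overlap, which was so in this direction for 6 of the 39 members and for 21.3% of all genes tested. The log2 difference was 1.24 ± 0.23 (2.35-fold, adjusted p = 0.00179), and it passed within males (adjusted p = 0.0326) and within females (adjusted p = 0.0455). The counts behind these values were 9 to 44 per library.

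Cyp2e1, which oxidises ethanol and small solvents, was at 1.75, 0.891, 1.19 and 1.07 RPKM in the pools and 2.61, 2.73, 1.81 and 1.83 in the flushed libraries, in the same order. All flushed libraries lay above all pools, though male pool 1 came close to the flushed males, and the difference was 0.85 ± 0.22 (1.80-fold, adjusted p = 0.00985). Within females the call held (adjusted p = 0.00872) and within males it was lost (0.308). Cyp1b1, which oxidises oestradiol, retinoids and polycyclic hydrocarbons, was at 1.79, 1.56, 1.34 and 1.48 RPKM and at 2.17, 2.12, 2.50 and 1.82 RPKM. Here too the groups did not overlap, and the difference was 0.49 ± 0.12 (1.40-fold, adjusted p = 0.00767). It too held within females (adjusted p = 0.022) and was lost within males (0.197).

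Among sterol enzymes, Cyp7b1 and Cyp39a1 rose and Cyp11a1 fell. Cyp7b1 was at 1.37, 1.25, 1.80 and 1.604 RPKM in the pools and at 1.92, 2.75, 1.81 and 1.85 in the flushed libraries (0.47 ± 0.14, adjusted p = 0.0228), with no overlap. The call was lost without male pool 2 (adjusted p = 0.0545), female pool 2 (0.0649) or flushed female 3 (0.0948). Cyp39a1 was at 6.09, 4.42, 5.69 and 4.20 RPKM and at 6.02, 6.29, 6.60 and 7.68 (0.38 ± 0.12, adjusted p = 0.0291), and male pool 1 lay among the flushed libraries. Without male pool 2, female pool 2, flushed female 2, flushed female 3 or flushed male 3 its adjusted p was 0.0702, 0.0875, 0.0515, 0.0651 and 0.0848.

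Cyp11a1, the mitochondrial enzyme that cuts the side chain of cholesterol to start steroid synthesis, was at 0.180, 0.0837, 0.166 and 0.277 RPKM in the pools and at 0.0263, 0.0979, 0.0413 and 0.0749 in the flushed libraries. The log2 difference was -1.52 ± 0.44 (2.87-fold lower, adjusted p = 0.0165), the groups overlapped in male pool 2 and flushed female 3, and the counts were only 3 to 26 per library. The call was lost without male pool 1 (adjusted p = 0.0619), female pool 2 (0.0646) or flushed female 2 (0.0519).

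In families 2 to 4 and 26 the remaining calls were each lost when certain single libraries were left out. Cyp4b1 was at 10.4, 10.4, 9.20 and 7.92 RPKM in the pools and at 9.90, 15.8, 11.2 and 12.5 in the flushed libraries (0.38 ± 0.14, adjusted p = 0.0491), and flushed female 2 lay among the pools. Its call was lost without any of male pool 1, male pool 2, female pool 1, female pool 2, flushed female 3 and flushed male 3, with adjusted p from 0.0612 to 0.165. Cyp4x1 rose by 0.31 ± 0.10 with no overlap (adjusted p = 0.0332), which was lost without male pool 1, male pool 2, female pool 1, flushed female 2, flushed male 1 or flushed male 3 (0.0564 to 0.102).

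Cyp26b1, which clears retinoic acid, was at 5.14, 5.03, 5.01 and 5.22 RPKM in the pools and at 6.26, 5.73, 5.47 and 5.44 in the flushed libraries, with no overlap. The difference was only 0.17 ± 0.06 (adjusted p = 0.0464) and was lost when any library other than male pool 1 was left out (0.0562 to 0.189). Cyp3a13 was at 0.347, 0.214, 0.434 and 0.277 RPKM and at 0.512, 1.11, 0.308 and 0.746 RPKM (1.05 ± 0.36, adjusted p = 0.0354), with flushed male 1 among the pools. Without male pool 2, female pool 1, female pool 2, flushed female 3 or flushed male 3 the adjusted p was 0.0864, 0.0587, 0.111, 0.144 and 0.114.

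Cyp2s1 was at 2.47, 2.43, 2.50 and 2.23 RPKM in the pools and at 2.17, 2.28, 1.41 and 1.64 in the flushed libraries (-0.38 ± 0.13, adjusted p = 0.0331). The flushed males were the low pair and flushed female 3 lay within the range of the pools. The call was lost without male pool 1 (adjusted p = 0.119), male pool 2 (0.117), flushed male 1 (0.0943) or flushed male 3 (0.0826), and with library totals only as the scale (0.104). It passed within males (0.0164) and had an adjusted p of 0.718 within females.

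**Figure D4:**
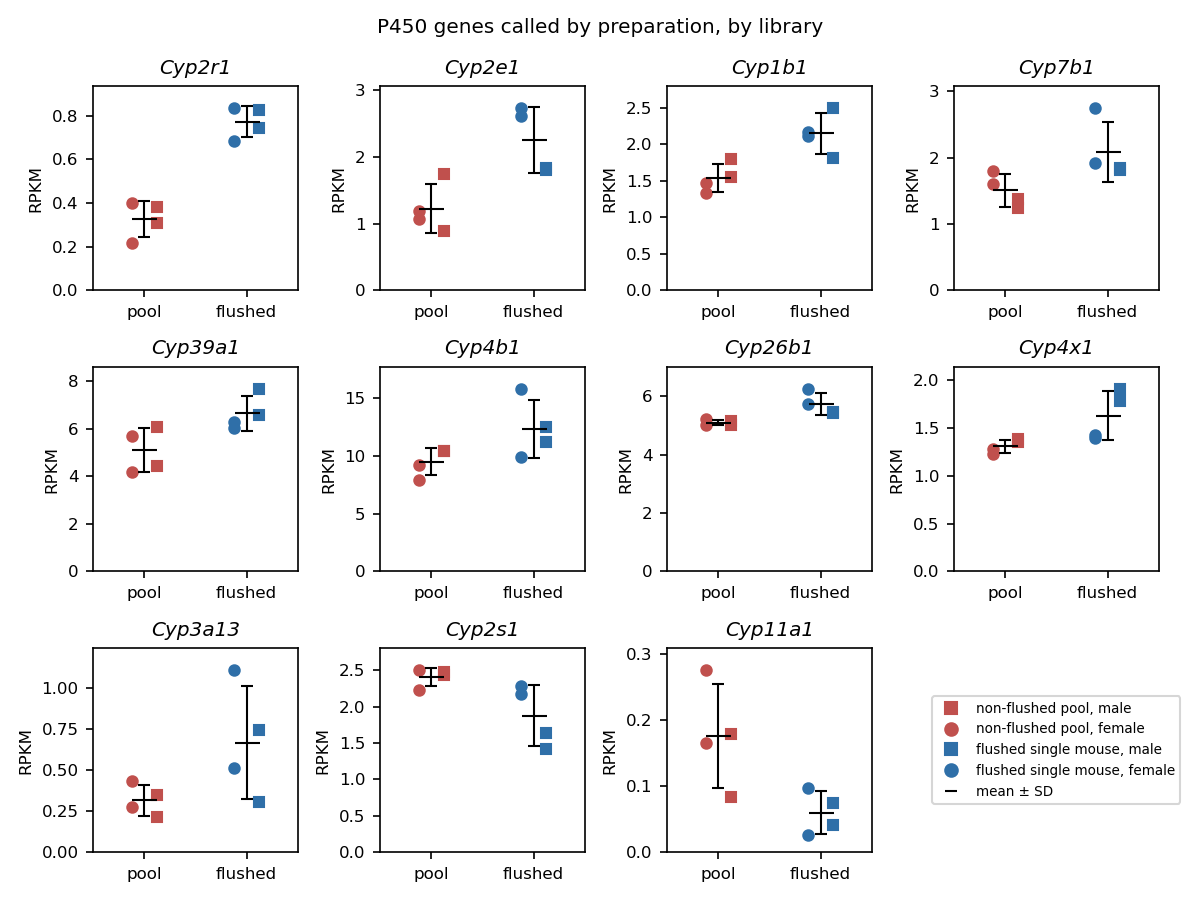
RPKM of the 11 P450 genes called by preparation, 1 point per library, with the mean and SD of 4 libraries, and axes from 0. Cyp2r1, Cyp2e1, Cyp1b1, Cyp7b1, Cyp26b1 and Cyp4x1 show no overlap between pools and flushed libraries, as do 21.3% of all genes in that direction, and in Cyp2s1 the flushed males lie lowest.

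The flushed libraries stood apart from the pools in other genes as well. All 5 erythroid markers were lower, with a summed level of 983.8 to 1236 CPM in the pools. In the flushed libraries this sum was 67.8 and 64.9 CPM in females 2 and 3, and 358 and 361 CPM in males 1 and 3. All 7 neutrophil markers were lower, with sums of 8580 to 11720 and 6583 to 9029. Of the 6 fibroblast markers 3 were lower and 2 higher, with sums of 34190 to 44770 and 15980 to 21440, and 3 of 4 markers of osteoblasts and osteocytes were lower (604.5 to 642.0 and 310.4 to 487.4). Of 5 endothelial markers 4 were lower (142.3 to 150.8 and 108.6 to 125.2 CPM), as were 4 of 8 tested gland markers, whose sums overlapped (139000 to 230300 and 120500 to 178800). Of 5 tested markers of supporting cells 2 were higher and 1 lower, with sums that overlapped. The glucuronosyltransferase Ugt2a2 rose by 2.71 and Ermn by 1.15 on the log2 scale. Ugt2a2 is among the genes that share exon bases with Ugt2a1, and reads on shared bases were not counted. The share of Ugt2a2 left to count was not measured. Of 6 markers of B and plasma cells 2 were higher and 3 lower, with a median log2 difference of -0.69. Their sum was 10.2 to 40.2 and 58.1 to 122.5 CPM, with Jchain of antibody-secreting cells higher by 3.13 on the log2 scale (adjusted p = 0.00439). In the lists of vomeronasal neurons, main olfactory neurons and ciliated cells 1 gene each was lower and 0 were higher. Macrophage markers had 1 higher and 2 lower, pericyte and muscle markers 1 and 1, and glial markers 1 and 2. Their part in the P450 differences was not tested.

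Whether the preparation difference itself depended on sex was asked with an interaction term. In edgeR 0 of the 39 members passed, where 10 of all 20601 genes (0.0485%) did, and DESeq2 and limma-voom also called 0. The smallest p was that of Cyp2s1, with an interaction of -0.60 ± 0.18 on the log2 scale (adjusted p = 1), the 1 member with an unadjusted p under 0.05. Cyp2e1 (-0.79 ± 0.38) and Cyp4b1 (-0.40 ± 0.27) followed, each with an adjusted p of 1. With 2 libraries in a group this test has little precision. Of the 5 erythroid markers, 3 passed in this fit, all with a positive interaction, and their part in P450 levels was not tested.

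The partners of P450s were read from gene lists given by function, whose counts stand against a background of 22.6% of all genes higher and 22.9% lower. Of 8 electron donors and their partners, 1 was higher and 3 were lower in the flushed libraries: Pgrmc1, a haem-binding membrane protein (0.38, adjusted p = 0.000583), rose, while Fdxr (-0.74, adjusted p = 0.00136), Cyb5r3, the reductase of cytochrome b5 (-0.34, adjusted p = 0.00162), and Por (-0.26, adjusted p = 0.026) fell. These 4 of 8 are near the 45.5% of all genes called in either direction. Por was at 51.3 to 73.5 RPKM over the 8 libraries. Of the 8 enzymes of haem synthesis 6 fell and 0 rose, led by Alas1, the rate-limiting enzyme outside the erythroid lineage (-0.46, adjusted p = 0.000276), and the 4 genes of haem breakdown all fell, Blvrb by 0.77 and Hmox1 by 0.42 on the log2 scale. The erythroid sums given above fell in the same libraries, and their part in this was not tested.

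Among receptors that induce P450s and their targets, 8 of 10 could be tested. Tiparp, a target of the aryl hydrocarbon receptor, rose (0.58, adjusted p = 0.000646) and Rxra fell (-0.26, adjusted p = 0.00585). Nqo1 (-0.195, adjusted p = 0.0584) and Ahrr (-0.049, adjusted p = 0.928) of the same list were not called. Ahr itself was at 7.60 to 9.64 RPKM (0.07, adjusted p = 0.451), and Nr1i3, the receptor through which phenobarbital induces Cyp2b10 in liver, was at 0.018 RPKM or below. Of 12 retinoid genes 6 fell and 0 rose, among them Rarg (-0.43) and Crabp1 (-0.70).

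In cholesterol synthesis 8 of 11 genes fell and 0 rose, among them Fdft1 (-0.67). In steroid synthesis 1 of 3 tested genes fell, Tspo (-0.48), and Hsd3b1 and Hsd3b6 were at 0. Of 7 genes that clear epoxides and aldehydes 5 fell and 0 rose, among them the epoxide hydrolase Ephx1 (-0.31, adjusted p = 0.00307). Flavin monooxygenases and other enzymes of the first step of drug metabolism went the other way: 4 of 9 rose and 0 fell, namely Fmo1 (0.87, adjusted p = 2.75e-05), Fmo2 (0.79), the carboxylesterase Ces1d (0.53) and Ces1f (0.46). By sex 0 genes passed in any of these 9 lists. Of the cell type markers, only those of nasal glands held calls by sex, with 2 of 8 tested genes higher in males. This stands against 0.116% of all genes called by sex. The gland sums were 230300 and 194700 CPM in male pools 1 and 2 and 139000 and 152200 in female pools 1 and 2. They were 163000 and 178800 in flushed males 1 and 3 and 142600 and 120500 in flushed females 2 and 3. Their part in P450 levels was not tested.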

How the data were processed

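Reads were single ends of 100 nucleotides from polyA-selected, stranded libraries, per the labels' protocols, aligned with STAR 2.7.1a and counted with featureCounts 1.6.5 on GRCm38 (mm10), per the submitters' processing notes. The authors' values are thus expected counts, as reads with several alignments added fractions to each gene, per the file headers, with reverse-stranded counting over exons and without reads that overlap more than 1 gene. No normalization had been applied. After rounding, edgeR 4.0.16 in R 4.3.3 was run (filterByExpr, TMM, quasi-likelihood F test, sex and preparation as additive terms, interaction in a further fit), with Benjamini-Hochberg adjustment over all 20601 genes tested and a threshold of 0.05. CPM and RPKM use unrounded counts over TMM-scaled library sizes, and RPKM also the exon length of the files. The SE is the log2 difference over the square root of F. The floor of a gene at 0 is 3 counts, which covers counting error only. The script was tested on simulated data. Alternatives were DESeq2 1.42.0, limma-voom (limma 3.58.1), other scalings, no filter and leaving out libraries. Named members were the 20 highest by mean RPKM, those past the threshold and the 3 smallest p by sex and by interaction, and other members were named after their values were seen. Of each gene list up to 3 genes with the smallest p were taken by rule, and others were named after their values were seen; some genes are not reported here. Members and lists were chosen with earlier results of these data known.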

Additional observations from a re-analysis of the deposited data

Results flagged for a closer look

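Cyp7b1 in flushed female 3 stood apart from the other flushed libraries, at 2.75 RPKM against 1.81 to 1.92 in the other 3. Its gap to the nearest of them was 0.882 of the range of the 4 values, above Dixon's 95% critical value. Such gaps were looked for in 56 sets of 4 libraries, of which 1 was past that value, and chance alone gives about 1 in 20.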

How the results depend on the processing

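The count of P450 genes called by preparation, 11 in edgeR, was 9 with DESeq2, 8 with limma-voom and 12 with RLE size factors, with library totals only, without nasal gland genes in the library size and with no filter on low counts. It was 6 to 8 when 1 library was left out, 2 within males and 3 within females. DESeq2 did not call Cyp26b1 and Cyp4x1, and limma-voom did not call Cyp26b1, Cyp3a13 and Cyp4b1. Over these fits no direction was reversed. The 12 with no filter include Cyp2g1, Cyp4a12b and Cyp2j6 and leave out Cyp4x1 (adjusted p = 0.056) and Cyp26b1 (0.0559), and that setting also gave 784 genes by sex in place of 24. With no filter the interaction count rose from 0 to 1 (Cyp2b10), while that over all genes rose from 10 to 263, and the cause was not tested. By sex the count was 0 in all alternatives run. Library totals only moved the median of all genes by 0.11 by preparation and by -0.12 by sex on the log2 scale. No paired analysis was possible because the pools carry no replicate number in the labels, which name them by their mice, and were numbered in listed order, and the flushed groups share only the number 3. Members of low count, such as Cyp11a1, are limited by depth.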
